A study of Mus musculus with 9 samples.

Results

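The genes described here encode the filaments and the identity markers of astrocytes, the star-shaped glial cells that fill the space between neurons. They were chosen by name, 10 genes of the 33940 genes that the annotation ties to the transcripts counted in these data. The list holds 2 intermediate filament genes (Gfap and Vim), 2 regulators of transcription (Sox9 and Hopx), 2 enzymes (Aldh1l1 and Acsbg1), 2 soluble binding proteins (S100b and Fabp7), 1 membrane transporter (Slc4a4) and 1 secreted precursor (Agt). Each gene was followed through the transcript with the highest mean count over all samples, and all 10 transcripts had enough reads to be tested.

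The samples were pieces of piriform cortex, the 3-layered olfactory cortex, from C57BL/6 wild type mice whose age the labels give as 8 weeks (the methods of the study give another age). Each of the layers, lettered A, B and C in the labels with no key to their numerals, was cut from frozen sections with a laser in 3 replicates, and the labels name no treatment. The cut tissue held every cell type of the layer, so that fewer astrocytes and less RNA per astrocyte cannot be told apart. The RNA was amplified before sequencing, and no label or method says whether replicates came from separate animals, so p-values measure only the spread between these samples and are too small if some shared an animal.

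As background, astrocytes take up transmitter and potassium, supply neurons with metabolites and contact blood vessels and the brain surface with their endfeet. Intermediate filaments of GFAP and vimentin stiffen their processes. In the cortex Gfap is known to be unevenly distributed, being strong in astrocytes that abut the pia and in white matter and weak in many astrocytes of the grey matter, whereas Aldh1l1, S100b and Sox9 mark grey matter astrocytes more evenly. Vim is not restricted to astrocytes, since endothelial cells, fibroblasts and smooth muscle also make it.

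The promoter sequences of 4 of these genes are shown as examples. All 10 genes were high in layer A, and a link between promoter sequence and level was not tested. Promoter sequence from RefSeq (build GRCm38.p6) was matched for 9 of the 10 genes, all except Sox9, and is given here for the 250 bases before the start, 5′ to 3′ on the strand of the gene. Capitals mark TATAAA, the palindromic STAT element TTCNNNGAA, and TTGGC, the half-site of the nuclear factor I (NFI) proteins, on either strand.
Gfap, chr11:102897201-102897450, minus strand: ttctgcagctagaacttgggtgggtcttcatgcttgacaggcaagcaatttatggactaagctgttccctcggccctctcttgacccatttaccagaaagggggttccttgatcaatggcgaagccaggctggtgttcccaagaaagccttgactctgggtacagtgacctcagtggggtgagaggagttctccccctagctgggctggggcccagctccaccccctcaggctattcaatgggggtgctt
Acsbg1, chr9:54661886-54662135, minus strand: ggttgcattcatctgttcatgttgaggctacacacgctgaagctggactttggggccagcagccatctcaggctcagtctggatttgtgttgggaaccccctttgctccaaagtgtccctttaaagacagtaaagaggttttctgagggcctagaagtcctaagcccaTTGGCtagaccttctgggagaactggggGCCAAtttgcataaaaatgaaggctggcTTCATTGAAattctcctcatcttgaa
S100b, chr10:76253586-76253835, plus strand: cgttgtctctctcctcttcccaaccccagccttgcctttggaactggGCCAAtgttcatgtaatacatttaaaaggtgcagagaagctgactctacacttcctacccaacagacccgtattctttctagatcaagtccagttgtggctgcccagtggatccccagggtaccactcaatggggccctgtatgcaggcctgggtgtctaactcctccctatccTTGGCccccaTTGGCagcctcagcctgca
Agt, chr8:124569707-124569956, minus strand: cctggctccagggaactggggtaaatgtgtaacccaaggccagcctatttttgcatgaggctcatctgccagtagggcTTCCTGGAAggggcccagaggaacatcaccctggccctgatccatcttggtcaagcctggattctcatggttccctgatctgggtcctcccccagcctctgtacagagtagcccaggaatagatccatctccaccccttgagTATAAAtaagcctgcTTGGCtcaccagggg

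The window of Gfap held none of the 8 motifs searched, which also included the CCAAT box, the GC box (GGGCGG), the SOX element ACAAAG, the AP-1 element TGANTCA and the E box CANNTG. It ended 69 bases before the annotated start of the Gfap transcript that carried most reads. The Acsbg1 window held TTGGC on both strands and a STAT element that ended at base -18 from the start. S100b had TTGGC at 3 positions, the last of them ending at base -15. Agt had TATAAA from base -30 to base -25 and a STAT element further upstream. Over the 11 member windows (Hopx and Slc4a4 have 2 starts each), 8 held TTGGC and 8 held CCAAT, and the motifs overlap where the letters ATTGGC occur. Among all 32851 windows of the same length the shares were 41.5% for TTGGC, 33.8% for CCAAT, 12.4% for TATAAA, 7.02% for TTCNNNGAA and 66.2% for CANNTG. The letters TATAAA were found in 2 member windows (Vim and Agt), TTCNNNGAA in 2 (Acsbg1 and Agt), CANNTG in 7 and GGGCGG in 2, against 32.7% of all windows for the last. The windows of Vim, of the upstream start of Slc4a4 and of the start nearest to Hopx-203 lay wholly within annotated exons of either strand, Vim-201 and Slc4a4-207 beginning 359 and 442 bases upstream of the RefSeq start. Neither ACAAAG (16.5% of all windows) nor TGANTCA (6.75%) was present in any of the 11. The base composition varied from 48.4% G and C in Acsbg1 to 82.0% at the upstream start of Slc4a4, where 44 CG dinucleotides lay in the window, against a median of 6 over all windows.

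Total counts lay between 23104306 and 76471683 per sample. Mitochondrial ribosomal RNA took 55.3% to 70.2% of the counts in layer A, 12.8% to 28.2% in B and 20.5% to 57.1% in C, and the scaling factors that offset this are part of every normalized CPM value given here (counts scaled to a common library total and corrected by TMM, a trimmed mean of ratios). On this scale, 3 counts corresponded to 0.0255 to 0.254 CPM. Layer B replicate 3 stood apart from the other two of its layer: its log2 values correlated with theirs at 0.873 and 0.865, against 0.973 between replicates 1 and 2. The replicates of layer A correlated with each other at only 0.863 to 0.894, and those of layer C at 0.883 to 0.953. Summed markers of inhibitory neurons in layer B replicate 3 were 300.0 CPM, against 60.7 and 56.0 CPM in replicates 1 and 2, and those of oligodendrocytes were 217 CPM, against 43.5 and 46.0 CPM. Differences that it decides are given with and without it.

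All 10 astrocyte genes were higher in layer A than in B and than in C, and none was called between layers B and C. For each of the 10 genes the lowest layer A sample lay above the highest of the 6 samples of layers B and C. The median log2 fold change of the 10 was 2.98 against B and 2.57 against C, beside medians of -0.12 and -0.01 over all tested transcripts. In the whole table, 10.7% of the 56416 transcripts tested were called higher in layer A than in B and 5.83% lower, at an adjusted p under 0.05 in edgeR's quasi-likelihood test. Against C, 6.98% were called higher in layer A and 4.35% lower. Counting only the highest transcript of each gene, as was done for the astrocyte genes, the shares higher in layer A were 13.2% of 15170 against B and 9.33% against C. Both comparisons use the same layer A samples.

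**Figure D1:**
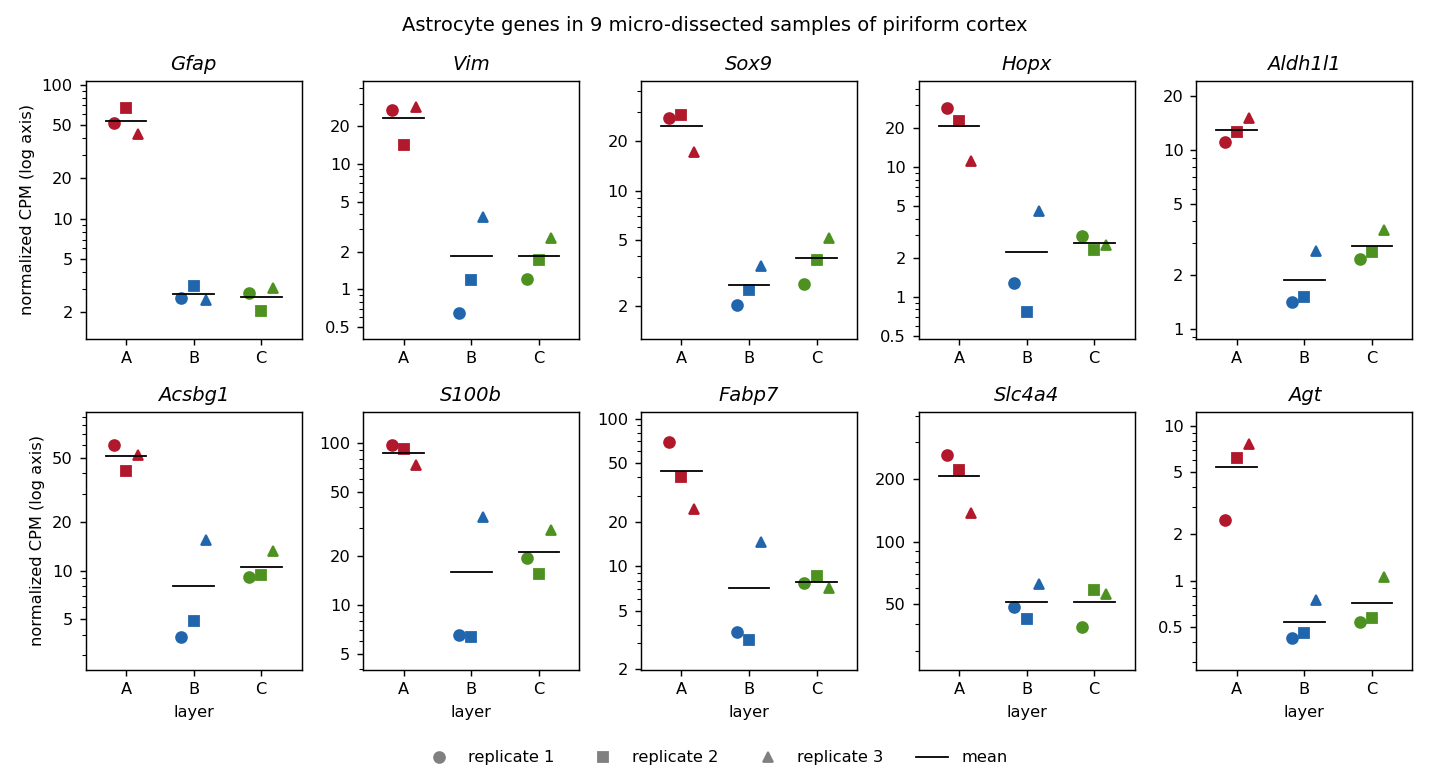
Normalized CPM (log axes, a separate range for each gene) of the 10 astrocyte genes in the 9 samples, by layer; symbols are replicates 1 to 3 and black lines the means. In every panel the 3 layer A samples lie above the 6 others, and layer B replicate 3 (triangle) lies above its 2 companions in every panel but that of Gfap.

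Gfap encodes the glial fibrillary acidic protein (Gfap-201, ENSMUST00000067444, chromosome 11 from 102887336 to 102897131, minus strand). Its normalized CPM was 51.7, 66.6 and 42.7 in layer A replicates 1, 2 and 3, 2.56, 3.16 and 2.47 in B, and 2.77, 2.04 and 3.04 in C. Layer A was thus far above both other layers, which overlapped, and the counts behind these values were 611 to 1713 in layer A and 32 to 357 in layers B and C. The log2 fold change was 4.29 ± 0.34 (SE) between layers A and B, a 19.6-fold difference (adjusted p = 9.68e-05, edgeR). Against C it was 4.34 ± 0.34, or 20.3-fold (adjusted p = 8.93e-05, edgeR). Only 104 of the 15170 genes had a larger log2 fold change against B, and 43 against C.

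Vim encodes vimentin, a filament protein of the same class (Vim-201, ENSMUST00000028062, chromosome 2 from 13573952 to 13582826, plus strand). Layer A replicates 1, 2 and 3 had 26.5, 14.1 and 28.4 CPM, layer B 0.65, 1.18 and 3.74 CPM, and layer C 1.2, 1.72 and 2.57 CPM. The values of layer B spread over those of layer C, and replicate 3 of layer B was the highest of these 6. The difference between layers A and B was 12.4-fold, a log2 fold change of 3.63 ± 0.58 (adjusted p = 0.000836, edgeR). Against C the log2 fold change was 3.64 ± 0.58 (adjusted p = 0.0025, edgeR). Vim and Gfap had the 2 largest log2 fold changes of the list in both comparisons, although without layer B replicate 3 Hopx came between them against B (4.71 for Vim, 4.39 for Hopx and 4.29 for Gfap).

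Sox9, a transcription factor that directs neural precursors towards glia and stays on in adult astrocytes, was counted on Sox9-201 (ENSMUST00000000579, chromosome 11 from 112782224 to 112787760, plus strand). It measured 27.3, 28.7 and 17.2 CPM in layer A, 2.04, 2.51 and 3.49 CPM in B and 2.74, 3.82 and 5.18 CPM in C. Layers B and C overlapped, with layer C reaching the higher values. The log2 fold change of layer A was 3.18 ± 0.39 over layer B (adjusted p = 0.000203, edgeR) and 2.63 ± 0.38 over layer C (adjusted p = 0.00183, edgeR).

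Hopx encodes a small homeodomain protein that does not bind DNA itself and marks astrocyte-like stem cells and part of the astrocytes (Hopx-203, ENSMUST00000120827, chromosome 5 from 77086988 to 77095253, minus strand). Values of 28.7, 22.6 and 11.2 CPM were found in layer A, 1.28, 0.761 and 4.55 CPM in B and 2.96, 2.29 and 2.51 CPM in C. The layer C samples fell between the low pair and the high sample of layer B. Layer A exceeded layer B by a log2 fold change of 3.23 ± 0.58 (adjusted p = 0.00165, edgeR) and layer C by 3.00 ± 0.57 (adjusted p = 0.00536, edgeR). An antisense gene, Hopxos, covers 388 bases of this transcript (31.9%), and without strand its reads cannot be told apart from those of Hopx.

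Aldh1l1 encodes an enzyme of folate metabolism that serves as a general astrocyte marker (Aldh1l1-203, ENSMUST00000130418, chromosome 6 from 90550789 to 90600203, plus strand). Layer A held 11.1, 12.5 and 15.1 CPM, layer B 1.41, 1.5 and 2.72 CPM and layer C 2.45, 2.68 and 3.57 CPM. The spread within layer A was small, with a mean of 12.9 ± 2.02 CPM (SD, n = 3). Its log2 fold change was 2.78 ± 0.39 against B (adjusted p = 0.000347, edgeR) and 2.15 ± 0.38 against C (adjusted p = 0.00372, edgeR). The antisense gene Gm15756 overlaps 438 bases (10.5%) of the transcript.

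Acsbg1 encodes an acyl-CoA synthetase that activates long fatty acids (Acsbg1-201, ENSMUST00000034822, chromosome 9 from 54604877 to 54661870, minus strand). The samples of layer A had 59.9, 41.4 and 52.4 CPM, those of layer B 3.9, 4.89 and 15.4 CPM and those of layer C 9.21, 9.43 and 13.3 CPM. Replicate 3 of layer B was above every layer C sample, and its companions were below every one. The log2 fold change was 2.66 ± 0.46 against B (adjusted p = 0.00131, edgeR) and 2.26 ± 0.45 against C (adjusted p = 0.00669, edgeR).

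S100b, a small calcium-binding protein of astrocytes that is also found in some oligodendrocyte lineage cells, was counted on S100b-201 (ENSMUST00000036387, chromosome 10 from 76253853 to 76261159, plus strand). Its level was 96.6, 91.1 and 73.3 CPM in layer A, 6.55, 6.36 and 35.0 CPM in B and 19.4, 15.5 and 29.1 CPM in C. The gap between replicate 3 of layer B and the mean of its companions, 5.42-fold, was the widest among the 10 genes. Layer A was higher than layer B by a log2 fold change of 2.44 ± 0.55 (adjusted p = 0.00664, edgeR) and than layer C by 2.02 ± 0.54 (adjusted p = 0.025, edgeR).

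Fabp7, the brain lipid-binding protein of radial glia and astrocytes (Fabp7-201, ENSMUST00000020024, chromosome 10 from 57784881 to 57788450, plus strand), measured 69.1, 40.2 and 24.3 CPM in layer A. In layer B it was 3.57, 3.18 and 14.5 CPM, and in layer C 7.67, 8.6 and 7.09 CPM. In proportion to its mean, layer A varied more than for any other of the 10 genes (44.5 ± 22.7 CPM, SD, n = 3), and it lay above all other samples. The log2 fold changes were 2.65 ± 0.54 against B (adjusted p = 0.00376, edgeR) and 2.52 ± 0.54 against C (adjusted p = 0.00918, edgeR).

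Slc4a4 encodes a sodium bicarbonate cotransporter of the astrocyte membrane (Slc4a4-207, ENSMUST00000148750, chromosome 5 from 88886818 to 89239653, plus strand). It had the most reads of the list, with 261, 221 and 137 CPM in layer A, 48.6, 42.6 and 62.9 CPM in B and 38.8, 58.3 and 56.3 CPM in C. Layers B and C overlapped and had almost equal means, 51.4 and 51.1 CPM. The difference was the smallest of the list against B and level with that of S100b against C, a log2 fold change of 2.01 ± 0.32 against B (4.02-fold, adjusted p = 0.000861, edgeR) and 2.01 ± 0.32 against C (4.04-fold, adjusted p = 0.0025, edgeR).

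Agt encodes angiotensinogen, the secreted precursor of the angiotensin peptides, which astrocytes make in the brain (Agt-201, ENSMUST00000063278, chromosome 8 from 124556534 to 124569706, minus strand). Its counts were the lowest of the list, from 9 in layer C replicate 2 to 306 in layer A replicate 3. The normalized values were 2.45, 6.14 and 7.62 CPM in layer A, 0.426, 0.461 and 0.748 CPM in B and 0.539, 0.573 and 1.05 CPM in C. All lay above the level of 3 counts in their own sample, and layers B and C overlapped. The log2 fold change was 3.31 ± 0.53 against B (adjusted p = 0.000861, edgeR) and 2.87 ± 0.52 against C (adjusted p = 0.00423, edgeR).

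Leaving out each sample in turn kept all 10 genes called against B. Against C, S100b was not called without layer A replicate 1 (adjusted p = 0.0821, edgeR), layer A replicate 2 (0.0698), layer C replicate 1 (0.121) or layer C replicate 2 (0.103). Fabp7 was not called without layer A replicate 1 (adjusted p = 0.0509, edgeR) or layer C replicate 1 (0.0596), and Acsbg1 not without layer C replicate 1 (0.0542), so that 7 of the 10 genes stayed called without that sample. No log2 fold change of layer A against the other layers changed sign.

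**Figure D2:**
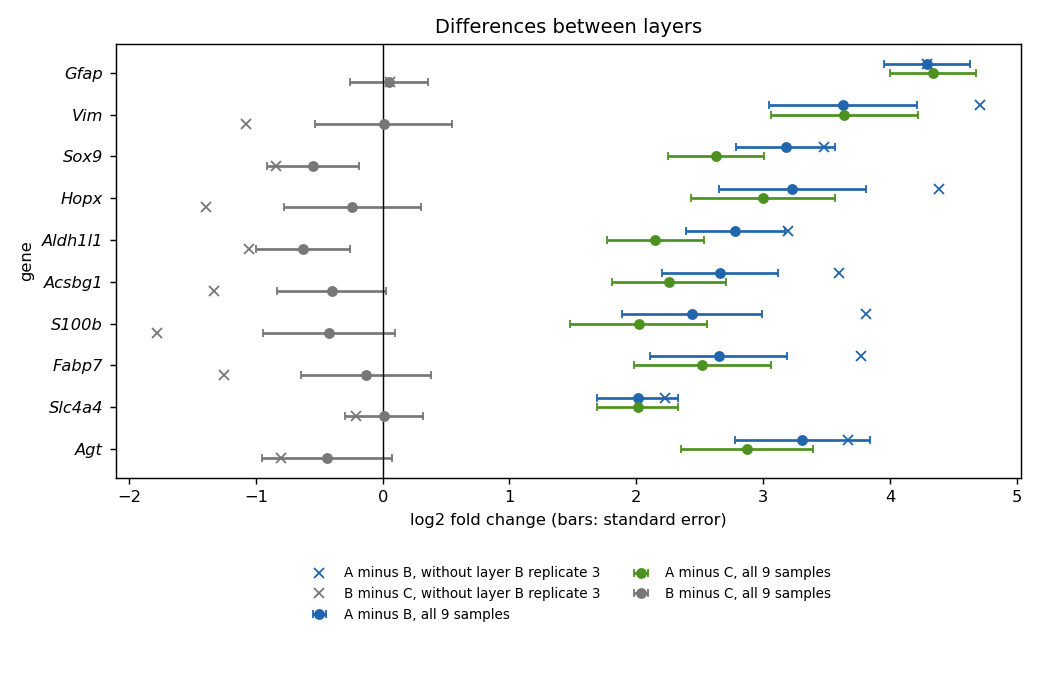
Log2 fold changes between layers (horizontal axis) for the 10 genes (vertical axis); points are the values over all 9 samples with their standard errors, and crosses the values without layer B replicate 3. All differences of layer A lie above 2, and the grey points of layer B minus layer C lie between -0.63 and 0.05 and move to between -1.78 and 0.06 without that sample.

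Between layers B and C no astrocyte gene was called, with adjusted p = 1 for each in edgeR and none of the 10 at an unadjusted p under 0.05. The background was 0.0% of the 56416 transcripts called in either direction, with 2316 at an unadjusted p under 0.05. DESeq2 called 29 transcripts higher in layer B and 101 higher in layer C, none of them one of the 10. The log2 fold change of layer B over layer C was 0.05 ± 0.31 for Gfap, 0.01 ± 0.54 for Vim and 0.01 ± 0.31 for Slc4a4. It was -0.63 ± 0.37 for Aldh1l1 and -0.55 ± 0.36 for Sox9, and between -0.44 and -0.13 for the other five.

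These differences turned on layer B replicate 3. Its ratio to the mean of replicates 1 and 2 was 0.865 for Gfap, 1.38 for Slc4a4, 1.53 for Sox9, 1.69 for Agt, 1.87 for Aldh1l1, and from 3.51 to 5.42 for Acsbg1, Vim, Fabp7, Hopx and S100b. Gfap was therefore the gene of the list that did not share the higher level of this sample. Without it, the log2 fold change of layer B over layer C became -1.78 for S100b (adjusted p = 0.071, edgeR), -1.39 for Hopx (0.226), -1.33 for Acsbg1 (0.107), -1.25 for Fabp7 (0.235), -1.08 for Vim (0.429) and -1.05 for Aldh1l1 (0.282). That of Gfap stayed at 0.06 and that of Slc4a4 moved to -0.21. The differences of layer A over layer B widened to 4.71 for Vim, 4.39 for Hopx, 3.81 for S100b, 3.77 for Fabp7 and 3.60 for Acsbg1 on the log2 scale, and Gfap stayed at 4.29.

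**Figure D3:**
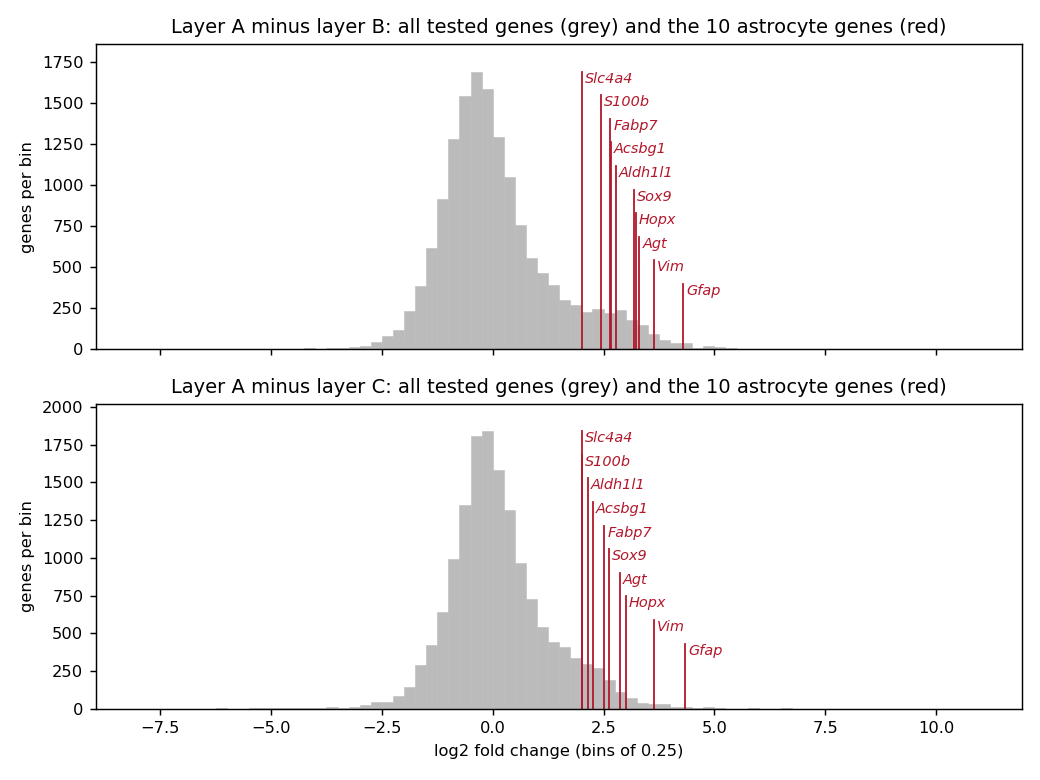
Number of genes (vertical axis, bins of 0.25) by log2 fold change of layer A minus layer B (top) and layer A minus layer C (bottom) for the 15170 genes tested by their highest transcript; red lines mark the 10 astrocyte genes, their heights only making room for the names. All 10 lie in the right shoulder of both distributions, Slc4a4 leftmost or level with S100b and Gfap rightmost.

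Within the distribution of all genes, 10.2% of the 15170 genes had a larger log2 fold change against B than Slc4a4 and 7.51% a larger one than S100b, so that the layer A shoulder held many genes beside these. The share was 0.686% for Gfap, 1.62% for Vim, 2.68% for Agt and between 3.05% and 6.28% for Hopx, Sox9, Aldh1l1, Acsbg1 and Fabp7.

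Per kilobase of transcript, the order of the genes in layer A was S100b (58.6 ± 8.24 CPM per kb, SD, n = 3), Fabp7 (55.4 ± 28.2), Slc4a4 (26.0 ± 7.94), Gfap (20.3 ± 4.58), Acsbg1 (17.8 ± 3.23), Hopx (17.1 ± 7.3), Vim (10.5 ± 3.53), Sox9 (5.91 ± 1.52), Aldh1l1 (3.09 ± 0.483) and Agt (2.86 ± 1.41). Of the 9 pairs of neighbours in this order, the ranges of 8 overlapped, and only Sox9 lay wholly above the gene after it. In layer C the order by mean level also began with S100b, Fabp7 and Slc4a4, and Gfap stood at rank 6, below Acsbg1 and Hopx, with 4 of the 9 neighbouring pairs overlapping. The order in layer B was alike but rested on replicate 3, and 8 of its 9 neighbouring pairs overlapped. Without that sample Slc4a4 came first (5.75 CPM per kb), ahead of S100b (4.35) and Fabp7 (4.2), and Gfap (1.08) stood at rank 5, above Hopx (0.838). The level of Gfap was 1.03 ± 0.141 CPM per kb in layer B with all 3 samples and 0.987 ± 0.195 in C. Of the summed normalized CPM of the 10 genes, Gfap took a mean of 10.3% in layer A, 3.35% in B and 2.52% in C, and Slc4a4 took 38.4%, 58.6% and 48.4%.

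Each gene was also set against 24 other astrocyte genes, such as the glutamate transporters Slc1a2 and Slc1a3 and the water channel Aqp4, as a log2 ratio to the mean of their log2 values, centred over the 9 samples. The ratio of Gfap was 0.86, 1.55 and 1.08 in layer A, 0.23, 0.37 and -1.31 in B and -0.65, -1.22 and -0.92 in C. Gfap thus differed from layer A to the others by more than the mean of these genes did, and its ratio was lowest in layer B replicate 3. Single genes could differ more, since without that sample the log2 fold change against B was 4.72 for Aqp4 and 4.29 for Gfap. The ratio of Vim was 0.82, 0.24 and 1.42 in layer A and lay between -0.93 and 0.2 in the other samples. For Gfap and Vim every layer A ratio lay above every other one, and for the remaining 8 genes the layers overlapped. The mean ratio of layer A minus that of layer B was 1.40 for Gfap, 1.08 for Vim, 0.68 for Hopx, 0.32 for Agt and 0.31 for Sox9. It was between -0.04 and 0.05 for Aldh1l1, Fabp7, Acsbg1 and S100b, and -0.90 for Slc4a4. Without layer B replicate 3 it was 1.30 for Vim, 0.95 for Hopx, 0.87 for Gfap, 0.39 for S100b, 0.25 for Fabp7 and 0.19 for Acsbg1. It was then 0.1 for Agt, 0.05 for Sox9, -0.21 for Aldh1l1 and -1.22 for Slc4a4. Hopx thus lay above Gfap without that sample, and the values near 0 with all samples depended on it. Layer A minus layer C gave 2.09 for Gfap, 1.40 for Vim and -0.27 for Slc4a4, and between -0.19 and 0.65 for the other 7 genes. These ratios are given as a description, without a test.

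**Figure D4:**
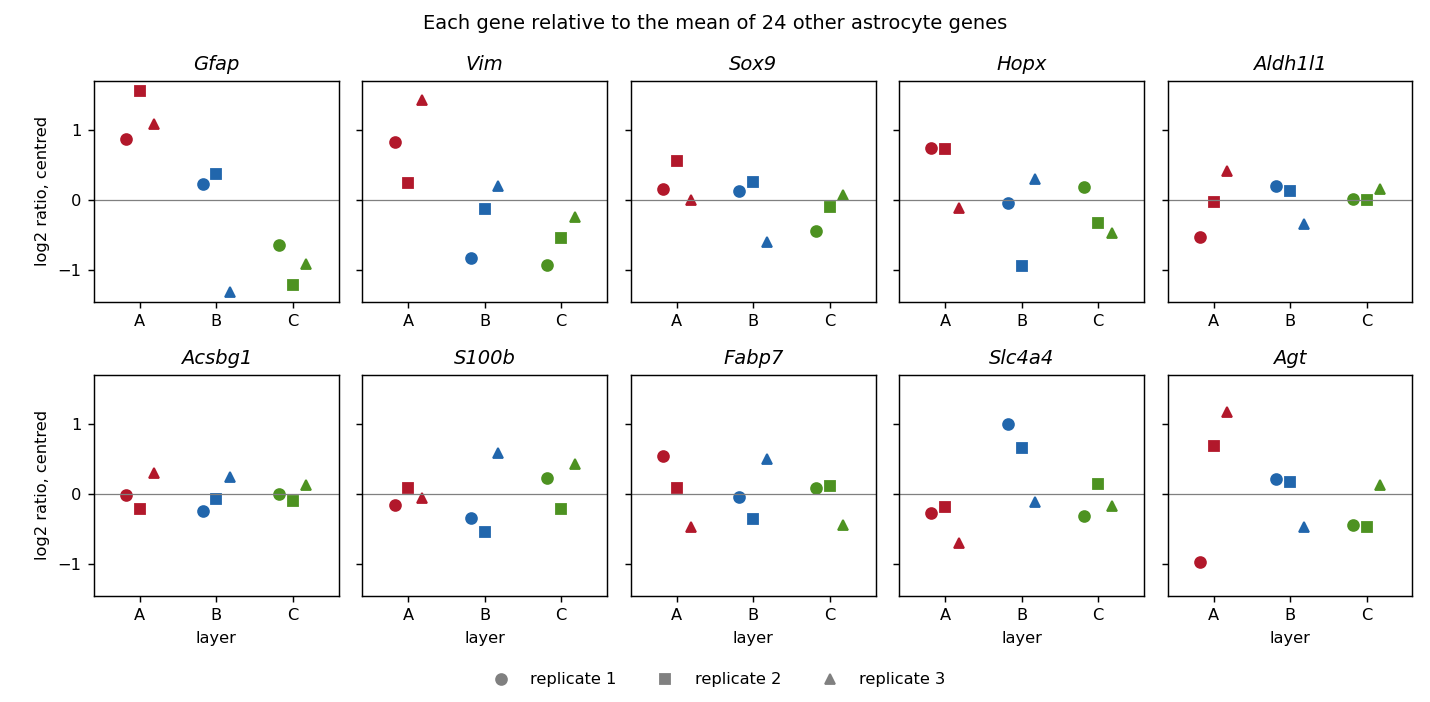
Log2 ratio of each gene to the mean log2 level of 24 other astrocyte genes (vertical axis, centred on its own mean over the 9 samples) by layer; symbols are replicates 1 to 3. Gfap and Vim lie highest in the 3 layer A samples, while Acsbg1 stays between -0.25 and 0.3 in all 9.

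The other annotated transcripts of these genes moved in the same direction. Of 33 transcripts of the 10 genes, 30 were tested, and of the 20 beside the chosen ones 17 were higher in layer A than in B and 15 than in C, with log2 fold changes against B from 0.88 to 4.3. Reads on bases that transcripts share cannot be assigned to one of them. Gfap-202, which shares 45.2% of its bases with Gfap-201, had 18.5% to 44.7% of the counts of Gfap-201 and a log2 fold change of 4.30 ± 0.43 against B (adjusted p = 0.000118, edgeR). Hopx-202 and Hopx-201 had at least 96.7% of the counts of Hopx-203 in every sample, so the reads do not separate them. For Slc4a4, the shorter transcript Slc4a4-208 had 28.4% to 29.0% of the counts of Slc4a4-207 in layer A, 39.3%, 43.6% and 23.8% in layer B replicates 1, 2 and 3, and 32.6% to 38.0% in layer C. All of its bases lie in Slc4a4-207, and its log2 fold change was 1.76 ± 0.31 against B (adjusted p = 0.00161, edgeR).

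Among the 24 other astrocyte genes, 23 were called higher in layer A than in each other layer, with medians of 2.81 and 2.35 on the log2 scale. Aqp4 had a log2 fold change of 4.01 ± 0.47 against B and 3.20 ± 0.45 against C. The amino acid exchanger Slc7a10 was the exception, at 5.34 CPM in layer A, 3.4 in B and 3.44 in C, and was not called (log2 fold change 0.66 ± 0.45, adjusted p = 0.371, edgeR, against B), although without layer B replicate 3 it was (1.47, adjusted p = 0.0105, edgeR). Without layer C replicate 1 the number called against C was 12. Of 21 tested regulators of the astrocyte lineage and its precursors, 16 were higher in layer A than in B and 13 than in C, with medians of 2.35 and 1.72, and Gli1 was not tested. The inhibitor of differentiation Id3 had a log2 fold change of 3.89 ± 0.54 against B, and Gli3, a factor of the hedgehog pathway, 3.66 ± 0.36. Nuclear factor I genes differed among themselves: Nfia was called against both layers (2.94 ± 0.39 and 1.72 ± 0.37), whereas Nfib had 53.8 CPM in layer A, 40.1 in B and 58.1 in C and was called against neither. Without layer B replicate 3 the regulators called numbered 19 against B and 18 against C. Against C they numbered 7 without layer A replicate 1 and 5 without layer C replicate 1.

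The other intermediate filament genes did not share the direction of Gfap and Vim as a group. Of 10 tested, 2 were higher and 2 lower in layer A than in B, 1 was higher and 3 lower than in C, and the medians were -0.29 and -0.18 (Prph was not tested). Nes, the nestin of precursor cells, was higher by a log2 fold change of 2.84 ± 0.57 against B and 2.01 ± 0.55 against C. Des, the desmin of muscle and pericytes, was higher than in B by 3.46 ± 0.82 (adjusted p = 0.00963, edgeR) and missed the threshold against C (0.072). Of the neuronal filament genes, Ina was lower in layer A than in B (-1.30 ± 0.29) and Nefm, Nefh and Ina were lower than in C, the calls of Nefm and Nefh against C each ending when any 1 of 4 samples was left out. Nefm was also called lower than in B (-2.13 ± 0.64), but without layer B replicate 3 its log2 fold change was -0.70 (adjusted p = 0.3, edgeR), and leaving out layer A replicate 1 or 2, the replicate block and a fit of only the 6 samples compared ended that call too. Nefh was not called against B (-1.26), and Nefl was called in neither comparison (-0.59 and -0.53). Synm, whose synemin joins vimentin and GFAP filaments, had 12.7 CPM in layer A, 7.78 in B and 9.21 in C and was not called. Without layer A replicate 1, layer C replicate 1 or layer C replicate 3 no gene of this list was called higher than in C, without layer B replicate 3 the number was 2, and without layer A replicate 3 it was 1 against B.

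Genes that astrocytes turn on when they react to injury were mostly scarce. Of 22, 9 had too few reads to be tested, and complement C3 had no count in layers B and C. Of the 13 tested, 6 were higher and 1 lower in layer A than in B, and 7 higher and 1 lower than in C. The iron oxidase gene Cp had 13.8 CPM in layer A, 0.78 in B and 1.77 in C, a log2 fold change of 4.14 ± 0.56 against B. Lcn2, a classical gene of reactive astrocytes, averaged 1.14 CPM in layer A and 0.0667 in B (log2 fold change 4.07 ± 1.04, adjusted p = 0.0139, edgeR). This layer B mean lay at the level of 3 counts, which was 0.0624 to 0.0692 CPM in the samples of layer B. The call of Lcn2 against B ended without layer B replicate 1, and that against C without layer C replicate 1 or 2. Serpina3n, another such gene, had 1.8 CPM in layer A, 1.86 in B and 4.09 in C and was not called, S100a10 had 4.34, 7.66 and 3.79 CPM and was not called, and the prostaglandin synthase gene Ptgs2 was lower in layer A (-2.28 ± 0.64 against B, not called without layer A replicate 1 or 2). Leaving out layer A replicate 2 or 3 left 3 genes called higher against B, and leaving out layer A replicate 2 or layer C replicate 1 or 2 left 3 called against C, and layer A replicate 3 or layer C replicate 3 left 4.

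Relatives of single genes of the list were grouped by family. Of the S100 and fatty acid-binding genes beside S100b and Fabp7, 7 of 9 were tested and 2 were higher in layer A than in each other layer, S100a1 (2.66 ± 0.50 against B, 2.22 ± 0.49 against C) and S100a4 (2.15 ± 0.64 and 2.86 ± 0.67), the call of S100a4 against B ending when any 1 of 5 samples was left out. S100a6, S100a16, S100a13 and Fabp5 had positive log2 fold changes from 0.88 to 2.33 and missed the threshold, and S100a10 had -0.80 and 0.20. Leave-one-out counts for this family ran from 1 to 5 against B and from 0 to 5 against C, the highest without layer B replicate 3 and the 0 without layer C replicate 1. In the Slc4 family of bicarbonate transporters 6 others were tested, and 1 was called against B: Slc4a10, a transporter of neurons, was lower in layer A (-1.39 ± 0.36, adjusted p = 0.0156, edgeR), though not without layer B replicate 3 (-0.92, adjusted p = 0.0563, edgeR) or layer A replicate 1 or 2. Slc4a2 had 1.27 ± 0.44 against B and was not called. Slc4a10 and Slc4a8 were lower and Slc4a2 higher than in C, the call of Slc4a10 ending when any 1 of 4 samples was left out. The calls of Slc4a8 and Slc4a2 against C (adjusted p = 0.0392 and 0.0479, edgeR) each ended when any 1 of 7 samples was left out and with totals without mitochondrial transcripts, and that of Slc4a2 also with no filter or with mitochondrial transcripts left out.

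Of 9 tested folate and acyl-CoA enzymes related to Aldh1l1 and Acsbg1, Acsl3 and Acsl6 were higher in layer A (1.84 ± 0.44 and 1.70 ± 0.35 against B) and Acsl4 was lower (-1.77 ± 0.34). Acsl1 was also lower than in B (-0.98 ± 0.31, adjusted p = 0.0388, edgeR), a call that ended when any 1 of 7 samples was left out, with no filter, with totals without mitochondrial transcripts and in a fit of only the 6 samples compared, and the mitochondrial paralog Aldh1l2 had 2.9, 1.53 and 1.55 CPM in layers A, B and C and was not called. Neither Acsl3 nor Acsl6 was called against C without layer A replicate 1 or layer C replicate 1, and 1 of them was called without layer C replicate 2, or against B without layer A replicate 1. Among the renin-angiotensin genes, 9 of 11 were tested and 4 were higher in layer A than in B, among them the peptidase genes Anpep (5.22 ± 0.57), Enpep (2.74 ± 0.79) and Ace (1.85 ± 0.44). Against C 2 were higher, Anpep among them, and 1 was without layer C replicate 1. Ren1, the gene of the enzyme that cleaves angiotensinogen, had no count in any sample of the 3 layers, and Mas1, a receptor gene, was lower than in B (-1.77 ± 0.50), but not without layer B replicate 3 (-1.30, adjusted p = 0.0622, edgeR), without layer A replicate 1 or 2, or with totals without mitochondrial transcripts. The call of Enpep ended when any 1 of 4 samples was left out. No gene of these lists was called between layers B and C in edgeR.

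Many markers of meningeal, vascular and microglial cells and of oligodendrocyte precursors were also higher in layer A, in numbers that differed by list. Meningeal fibroblast markers (9 genes) summed to 77.6 to 174 CPM in layer A, 1.5 to 7.98 in B and 4.39 to 6.51 in C, and all 9 were called higher than in each other layer, with medians of 5.22 and 4.47 on the log2 scale. Pericyte and smooth muscle markers (8 genes) summed to 237 to 389, 16.9 to 59.7 and 47.2 to 67.3 CPM, with 8 of 8 called against each layer. When at least 10 counts were required in all 9 samples, 1 meningeal marker and 5 pericyte and smooth muscle markers were called against each layer. Endothelial markers (8) summed to 111 to 129, 7.87 to 20.8 and 14.8 to 25.8 CPM, with 7 called against B and 6 against C. Microglia markers (8) summed to 118 to 160, 19.3 to 51.6 and 41.8 to 60.5 CPM, with 6 called against each layer, and oligodendrocyte precursor markers (7) to 96.2 to 140, 18.5 to 33.6 and 42.4 to 59.5 CPM, with 7 and 2 called. No gene of these 5 lists was at 0 throughout a layer. The part of these cells in the levels of Vim or of any other gene described here was not tested.

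Markers of neurons and oligodendrocytes did not move in this way as a group. Of 8 excitatory neuron markers 4 were lower and 1 higher in layer A than in B, and 5 were lower and 1 higher than in C. Camk2a, whose mRNA is carried into dendrites, was the one that was higher, at 2970, 811 and 1120 CPM in layers A, B and C, and it made up most of the sum of this list. Without layer A replicate 1, layer C replicate 1 or layer C replicate 3 it was not called against C. Without layer B replicate 3, Nrgn was no longer called lower than in B (-1.57, adjusted p = 0.0594, edgeR), whereas Slc17a7 was (-1.27, adjusted p = 0.0181, edgeR). The call of Tbr1 against B ended when any 1 of 4 samples was left out. Against C, that of Neurod2 ended with any 1 of 7 and that of Nrgn with any 1 of 5. Inhibitory neuron markers summed to 194 to 349 CPM in layer A, 56.0 to 300.0 in B and 181 to 309 in C, with Gad2 called higher than in B (1.91 ± 0.45). Oligodendrocyte markers summed to 162 to 268, 43.5 to 217 and 133 to 485 CPM, with Cnp called against B (1.63 ± 0.52, adjusted p = 0.0444, edgeR), a call that ended with mitochondrial transcripts left out. Ependymal and choroid plexus markers summed to at most 2.18 CPM in any sample, and Tmem212 was at 0 in all layers. Without layer B replicate 3, 6 oligodendrocyte and 3 inhibitory neuron markers were called higher in layer A than in B, and without layer A replicate 1 none of either list. Without any other sample of layer A, layer B replicate 1 or 2, or layer C replicate 1, no oligodendrocyte marker was called either. Against C, leaving out layer C replicate 1 took the called microglia and oligodendrocyte precursor markers to 0 and the pericyte and smooth muscle markers to 3, and microglia markers were 1 without layer A replicate 1 or 2 and 2 without layer C replicate 2. Oligodendrocyte precursor markers called against C were 4 without layer B replicate 3 and 1 without layer A replicate 1, layer A replicate 2 or layer C replicate 2.

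**Figure D5:**
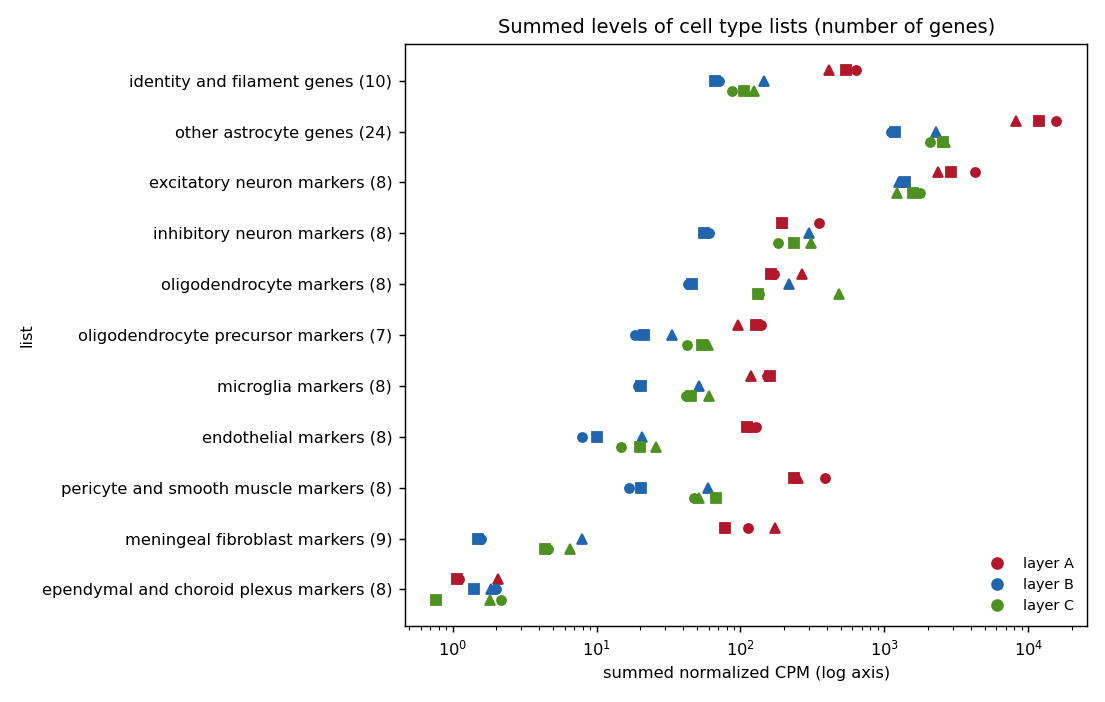
Summed normalized CPM (horizontal log axis) of the 10 identity and filament genes and of each cell type list (vertical axis, number of genes in brackets) in the 9 samples; colours are layers and symbols replicates 1 to 3. Layer A samples lie to the right of all others for the astrocyte, excitatory neuron, precursor, microglia, endothelial, pericyte and meningeal lists, and not for the inhibitory neuron, oligodendrocyte or ependymal lists.

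Over the 9 samples, the genes whose log2 levels were most like the mean of the 10 astrocyte genes were Cpq (Pearson's r = 0.998), Adgrl4 (0.997), Naaa (0.996), Tpm4 (0.996) and Slc1a3 (0.995). Those most like Gfap were Rnf213 (0.989), Bicc1 (0.986), Slc26a7, Tmcc2 and Pygb, the last at 0.981, and none of the 5 was among those most like the mean. With 3 layers of unlike level these values describe mainly the step between layer A and the others in the same 9 libraries.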

How the data were processed

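RNA-seq of laser-captured layers A, B and C of piriform cortex was analysed in 9 samples, 3 per layer, grouped by the layer letters of the labels. The deposited values are raw read counts per Ensembl transcript (95533 per sample), made by the authors from amplified RNA and strand non-specific libraries, with no normalization. The submitters' processing notes name bcl2fastq 1.8.4, Bowtie, HTSeq 0.5.3 and the build mm10. How reads on shared bases were counted is not given in the sources used here.

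Transcripts were joined to GENCODE vM21 of GRCm38, the same assembly (82779 of 95533, 86.6%). A filter of 10 counts in 3 or more samples left 56416 transcripts, which were scaled by TMM. Layers were compared in edgeR 4.0.16 under R 4.3.3 (quasi-likelihood test, all 9 samples, layer as the only term, Benjamini-Hochberg adjustment over all tested, threshold 0.05). A standard error is the log2 fold change over the square root of F. Each gene was taken by its transcript with the highest mean count. The text names all 10 genes, of each other list up to 4 by the largest and smallest differences of layer A over layer B, all relatives of single members, and the 5 genes most alike over the samples; other named genes of the lists (Slc1a2, Slc1a3, Nfia, Serpina3n, C3, Gli1, Tmem212) were chosen after their values were seen, and some genes that this rule names are not reported here. The method was tested on simulated counts. Alternatives were DESeq2 1.42.0, other normalizations, filters and transcript choices, a replicate block and each sample left out. Total counts were 23104306 to 76471683, and detection limits of 3 counts cover counting error only, since reads of amplified RNA are not independent molecules. Members and lists were chosen with earlier results of these data known.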

Additional observations from a re-analysis of the deposited data

How the results depend on the processing

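All 10 genes kept their direction in layer A against layers B and C under every alternative that gave a value, and all tested ones stayed called except Acsbg1, S100b and Fabp7 against C when single samples were left out. The filter asking for at least 10 counts in all 9 samples removed Agt. The deviations of same-numbered samples from their layer means correlated between -0.187 and 0.224, and those of other pairs between -0.335 and 0.349. With 3 samples per layer these values cannot show whether the replicate numbers pair the samples. With the replicate number as a block, 5933 transcripts were higher and 3251 lower in layer A than in B, 3896 higher and 2488 lower than in C, 0 were called between layers B and C, and 10 of the 10 genes stayed called higher against each; list counts that it moved by more than 1.5 times were those of S100 and fatty acid-binding genes (5 against each layer), oligodendrocyte markers (4 against B) and Slc4 genes (1 against B).

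Counted by gene sums, 2195 genes were higher and 1367 lower in layer A than in B, and 1599 higher and 1023 lower than in C, and by the highest transcript of each gene only 2253, 1436, 1682 and 1091, since fewer features were tested. A fit of only the 6 samples compared called 2052 transcripts lower in layer A than in B, and the cause was not tested. Between layers B and C, DESeq2 called 29 higher in layer B and 101 higher in layer C, no filter 3 and 7, the highest transcript only 2 and 2, and gene sums 1 higher in layer B. Leaving out 1 sample gave 3942 to 7292 transcripts higher and 1491 to 4044 lower in layer A than in B, 910 to 5777 higher and 459 to 3965 lower than in C, and 0 to 4 higher in layer B and 0 to 13 higher in layer C between these. The lowest counts against C came without layer C replicate 1.

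The sign of layer B against C was not fixed for genes near 0, none of them called. Vim turned to -0.11 with totals without mitochondrial transcripts, -0.01 with no filter, -0.03 with at least 10 counts in all samples, -0.16 with the replicate block, -0.00 with 6 samples, -0.17 by gene sums and -0.13 by the highest transcript only. Slc4a4 turned to -0.01, -0.01 and -0.02 with those totals, no filter and the highest transcript only. With 1 sample left out, the range was -0.09 to 0.14 for Gfap, -1.08 to 0.38 for Vim, -1.39 to 0.15 for Hopx, -1.25 to 0.19 for Fabp7 and -0.21 to 0.11 for Slc4a4. Depth limits Agt most, with 9 to 36 counts in 5 of the 6 samples of layers B and C.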
